A study of Mus musculus with 59 samples.

Results

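The effect of the high dose of benzo(b)fluoranthene (BbF), a polycyclic aromatic hydrocarbon, was compared between the lung and the liver of the same mice. For each gene, the change from vehicle to high dose in liver was subtracted from the change in lung, and the genes that changed the same way in both organs were listed beside those whose change differed. The comparison rests on 20 of the 59 arrays of the series, with 5 arrays in each of 4 groups, and on 37163 genes or transcripts measured by 55681 probes. All animals were male Muta™Mouse of about 16 weeks, a strain with a bacterial reporter transgene for mutation assays, and all received olive oil by daily gavage over 28 days. The groups D0_lung and D0_liver hold vehicle mice 1 to 5 (dose 0). The groups D3_lung and D3_liver hold mice 16 to 20, whose oil carried 100 mg/kg-bw/day BbF. Organs were collected 72 h after the last dose, and every one of these 10 mice gave 1 array of each organ, from RNA of random sections of whole tissue. Titles and treatment protocol name BbF as the compound, and benz(a)anthracene stands in an exposure label and in the design text, so the labels disagree. The doses are those given for BbF.

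Each value is the log2 ratio of an organ's RNA (Cy5) to a reference RNA from 11 mouse cell lines (Cy3) on the same array. A change is the fitted log2 difference of high dose minus vehicle within an organ, after removal of slide effects, and a difference is the lung change minus the liver change. A gene was called when limma's moderated test gave a probe an adjusted p (Benjamini-Hochberg, over all probes) of at most 0.05 and a size of at least 1.5-fold. Liver arrays of the third liver slide stand apart. On its 4 arrays used here (vehicle mouse 5 and high-dose mice 18, 19 and 20), between 11.9% and 12.9% of probes were well above background, against 40.4% to 46.2% on the other 6 liver arrays and 44.8% to 52.7% on the 10 lung arrays, and the spread of the log2 ratios was 0.56 to 0.62 against 1.05 to 1.08 on the other liver arrays. In liver, therefore, raw values are read within a slide: mice 1, 2, 16 and 17 share the second slide, and mice 5, 18, 19 and 20 the third, while vehicle mice 3 and 4 lie on a slide with no high-dose array. The organ labels fitted their marker genes. The surfactant gene Sftpc lay between 6.84 and 7.56 in lung and between -0.26 and 0.24 in liver, and the albumin gene Alb between 5.96 and 7.19 in liver and between 0.30 and 0.78 in lung. In whole tissue, fewer cells of a type and less RNA per cell cannot be told apart.

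As background, BbF binds the aryl hydrocarbon receptor (AhR), a transcription factor that induces the Cyp1 monooxygenases and its own repressor Ahrr. The diol epoxides that these enzymes form bind DNA, and p53 then induces genes of cell cycle arrest, repair and apoptosis. The circadian clock is a loop in which Arntl and Clock drive repressors (Per, Cry, Nr1d) and output factors (Dbp, Tef, Hlf), while Nfil3 opposes the output factors at their binding sites.

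The high dose changed more genes in lung than in liver, and few genes were called in both. In lung 810 genes were called (2.18% of all genes; 518 up, 1.39%, and 292 down, 0.786%), and in liver 236 (0.635%; 170 up, 0.457%, and 66 down, 0.178%). The liver count was 560 without the third liver slide, and 154, 118 or 101 without mouse 1, 2 or 17. The change itself differed between the organs for 672 genes (1.81%), of which 384 had the higher change in lung (1.03%) and 288 the higher change in liver (0.775%). Higher means the more positive change, not the larger one. The lung change was the larger in size in 338 of the 384 genes and in 192 of the 288. Without the third liver slide 621 differences were called, and the balance turned. The higher change was then in lung for 257 genes and in liver for 364. Centring each array on its median in place of loess moved the median lung change of probes measured in both organs from -0.0131 to 0.324 and that of liver from -0.000854 to -0.0102, so that the 672 became 3290 genes, split 3220 to 70. Directions below are relative to loess and are marked where they turned. Of the 672 genes, 361 were called in lung and not in liver, 76 in liver and not in lung, 6 in both and 229 in neither, by the probe with the largest difference. The 384 genes had a median change of 0.69 in lung and -0.08 in liver, and the 288 genes -0.51 and 0.24. Only 28 genes (0.0753%) were called in the same direction in both organs, 24 up and 4 down, which is 3.46% of the lung genes and 11.9% of the liver genes. Opposite calls were made for 2 genes (0.00538%).

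**Figure D1:**
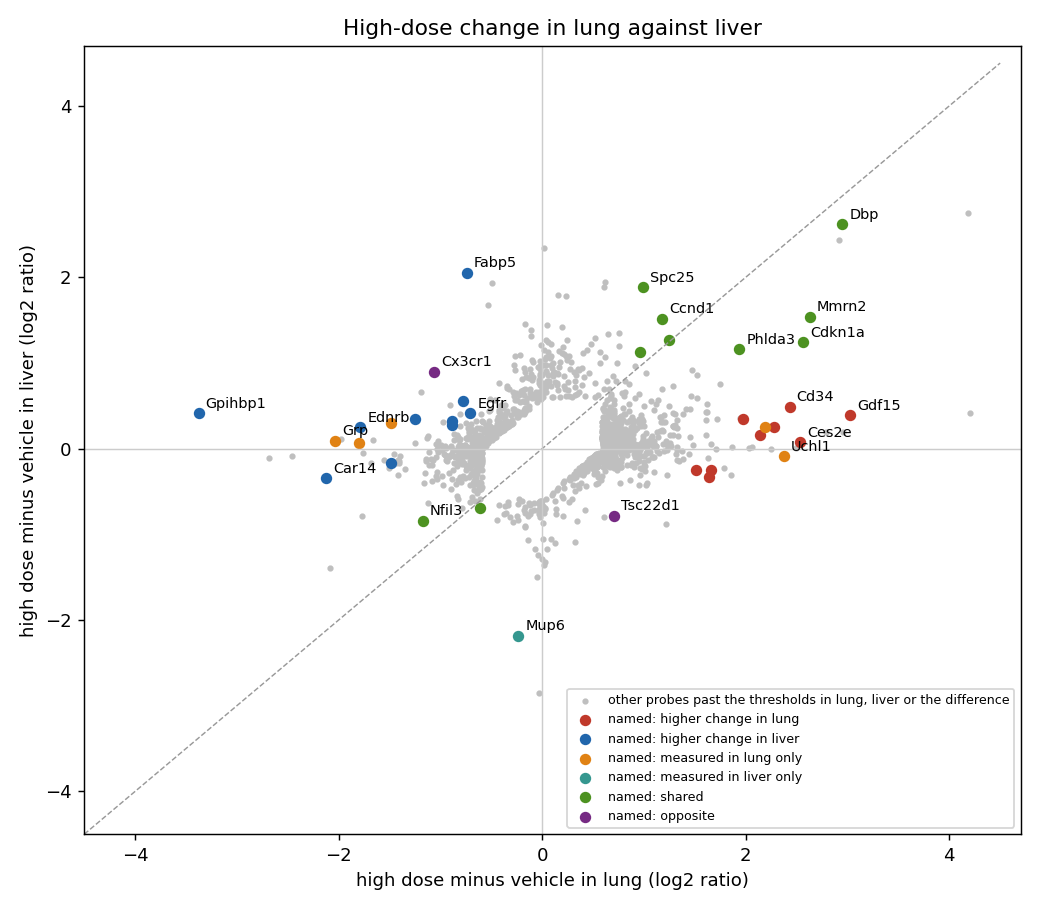
Change at the high dose in lung (x axis) against that in liver (y axis), both as fitted log2 differences from vehicle, with 1 point per probe past the thresholds in lung, liver or the difference. Coloured points are named genes, grey points the other probes, and the dashed line marks equal change. Dbp lies near that line, Gdf15 far to its right (3.03 in lung, 0.39 in liver) and Gpihbp1 far to its left.

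Genes of the AhR pathway rose in lung in part, and the liver values of Cyp1a1 varied between high-dose mice. This list and those below were chosen with earlier results of these data known, so their counts are description only. Of 8 listed targets, 5 were called up in lung (1.29% of all genes were, by their brightest probe), none was called in liver (0.441% were called up), and 2, Cyp1b1 and Ahrr, had a called difference (0.918% had one with the higher change in lung). In liver 2 of the 8 reached an unadjusted p under 0.05, Cyp1a1 upward. The members not called in lung were Aldh3a1 (-0.54 ± 0.18), Ugt1a6a (-0.15) and Cyp1a2 (0.02), with liver changes of 0.01, -0.32 and 0.26. The list's median change was 0.89 in lung and 0.19 in liver, against -0.0049 and -0.00019 over all genes. The 250 bases before the start of the 3 genes that responded most are shown because the letters GCGTG, the core of the AhR's known binding element, lie in each of them (capitals; in Cyp1b1 on the other strand, as CACGC). They are RefSeq sequences of build GRCm38.p6, written 5′ to 3′ towards the gene: Cyp1a1 at chr9:57697363-57697612 (plus strand), Cyp1b1 at chr17:79715062-79715311 (minus strand) and Ahrr at chr13:74292332-74292581 (minus strand).
Cyp1a1: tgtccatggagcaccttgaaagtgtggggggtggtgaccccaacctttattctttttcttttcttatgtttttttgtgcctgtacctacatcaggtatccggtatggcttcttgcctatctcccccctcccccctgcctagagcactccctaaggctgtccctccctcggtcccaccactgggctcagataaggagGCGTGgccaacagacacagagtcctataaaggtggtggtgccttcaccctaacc
Cyp1b1: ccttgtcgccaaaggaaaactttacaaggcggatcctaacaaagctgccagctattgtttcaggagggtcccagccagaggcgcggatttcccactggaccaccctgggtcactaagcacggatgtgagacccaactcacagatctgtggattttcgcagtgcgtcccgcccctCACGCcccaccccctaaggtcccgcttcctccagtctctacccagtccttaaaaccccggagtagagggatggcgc
Ahrr: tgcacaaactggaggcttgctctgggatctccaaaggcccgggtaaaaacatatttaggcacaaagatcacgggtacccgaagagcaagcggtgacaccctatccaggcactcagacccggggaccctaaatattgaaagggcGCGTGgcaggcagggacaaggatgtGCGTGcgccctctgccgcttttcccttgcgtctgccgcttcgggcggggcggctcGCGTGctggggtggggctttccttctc
Searched on both strands, GCGTG was found in 4 of the 7 AhR target promoters in the table and in 28.2% of all 32851 promoters of this length, but also in 9 of 11 promoters of clock output genes (81.8%) and 11 of 22 of p53 targets, so the match is a description of these letters and not of binding.

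Cyp1a1 (NM_009992), the enzyme that oxidizes many polycyclic hydrocarbons, had log2 ratios of 2.97, 8.39, 2.06, 2.81 and 2.64 in the lungs of vehicle mice 1 to 5 and of 7.54, 8.94, 5.99, 9.36 and 9.38 in those of high-dose mice 16 to 20. In liver the vehicle values were -0.01, 2.84, 0.72, 0.09 and -0.14, and the high-dose values 0.24, 6.68, 0.03, 5.03 and 5.29. Vehicle mouse 2 was thus the highest vehicle animal in lung, within the high-dose range, and in liver it lay above vehicle mouse 1 of its slide. High-dose mouse 16 (0.24 in liver) lay between these vehicle mice, and the other high-dose value of that slide was 6.68. High-dose mouse 18 (0.03) lay just above vehicle mouse 5 (-0.14), and the other high-dose values of their slide were 5.03 and 5.29. With mouse 5 as its only vehicle mouse, that slide gives no vehicle range. Cyp1a1 was well above background on 2 vehicle and 3 high-dose livers. The fitted change was 4.18 ± 1.09 in lung (SE, adjusted p 0.0103) and 2.75 ± 1.14 in liver (adjusted p 0.294), and the difference of 1.44 ± 1.57 was not called (adjusted p 0.783). Without mouse 2 the lung change was 5.34, and without mouse 5 it was 3.58 and no longer called (adjusted p 0.0739).

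Cyp1b1, a related enzyme found mostly outside the liver, had lung values of -1.39, 0.21, -1.53, -1.28 and -1.60 in vehicle and of 1.03, 4.95, 0.67, 4.96 and 5.01 at the high dose, without overlap. The difference was 3.78 ± 0.74 (adjusted p 0.00284) from changes of 4.20 in lung and 0.42 in liver, and without the third liver slide it was 3.31 (adjusted p 0.106). In liver Cyp1b1 was well above background on no vehicle array and on 2 high-dose arrays, and its liver change was not called (adjusted p 0.849). Ahrr had lung values of -0.52, -0.14, -0.54, -0.46 and -0.51 in vehicle and of 1.56, 3.34, 1.12, 3.58 and 3.94 at the high dose. Its difference was 2.76 (adjusted p 2.45e-05), with 1 high-dose and no vehicle liver array well above background, while its second, dimmer probe gave 0.50 (adjusted p 0.0582). In both genes mice 17, 19 and 20 were the highest, the same animals whose liver Cyp1a1 was high. The quinone reductase gene Nqo1 and Tiparp, a repressor of the receptor, rose by 1.15 and 0.64 in lung, against liver values of -0.06 and 0.18, with no called difference. Tiparp was not called in lung without mouse 5, 17, 19 or 20 (0.50 without mouse 17).

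**Figure D2:**
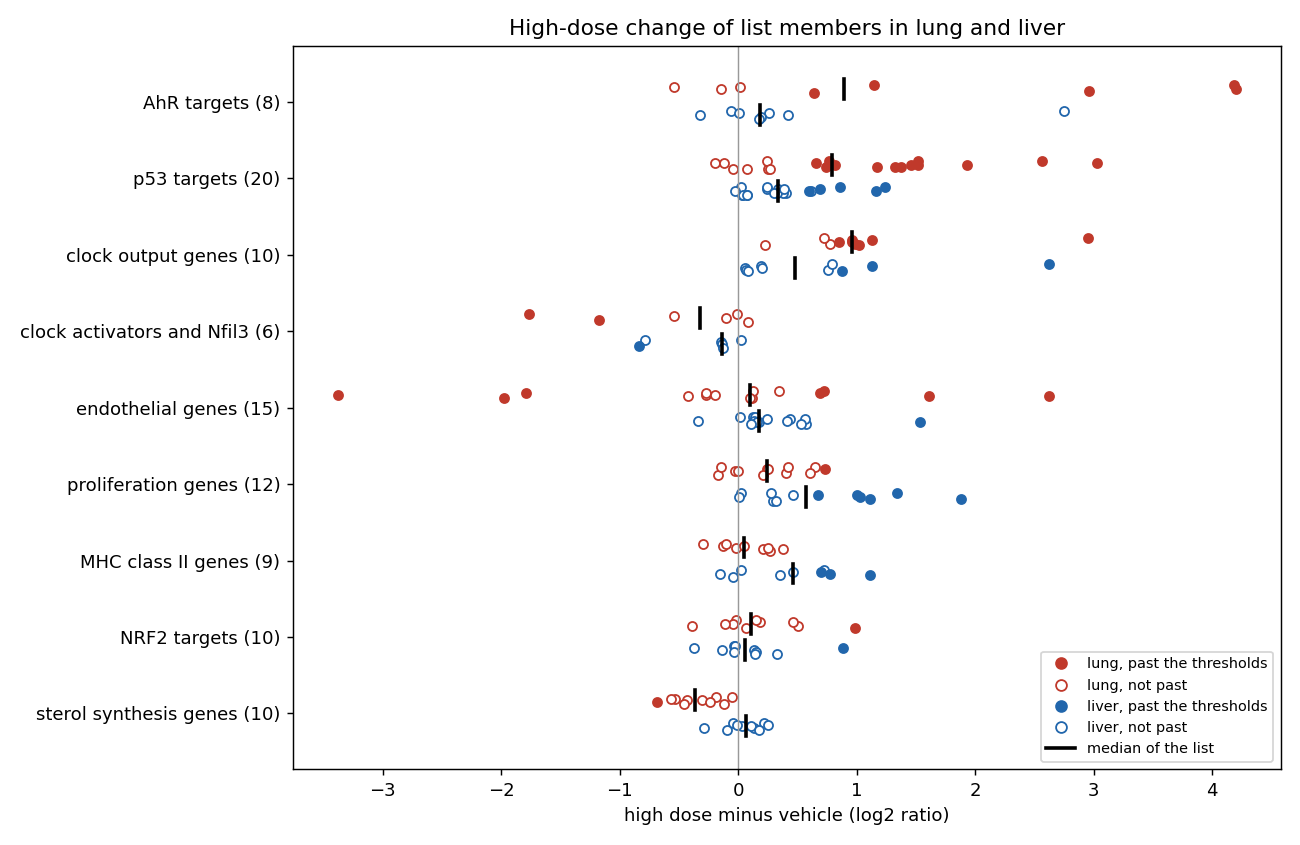
Change of each listed gene in lung and in liver (log2, high dose minus vehicle), grouped by list, with 1 point per gene (filled where called) and a bar at the list's median. AhR targets have medians of 0.89 in lung and 0.19 in liver, and p53 targets of 0.79 and 0.33.

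Of the genes that met the rule for naming, those with the largest differences towards lung were a stress cytokine, 2 carboxylesterases, a receptor partner, a cell surface sialomucin, 2 matrix proteins, an enzyme and a histone. In all 9 genes described here, the 5 high-dose lung values lay above the 5 vehicle values, as the rule required (7.25% of all genes were free of overlap in lung), and no liver change was called. Gdf15 (NM_011819), a secreted factor of the TGF-beta family that p53 induces, had vehicle lung values of -2.78, -2.23, -2.28, -2.56 and -2.04 and high-dose values of 1.16, 1.06, -0.50, 0.45 and 1.45. In liver it read -1.09, -1.41, -0.63, 0.10 and -0.08 in vehicle and -0.42, 0.42, -0.27, -0.07 and -0.10 at the high dose. The lung groups were far apart and the liver groups overlapped, although on the second liver slide mice 16 and 17 lay above mice 1 and 2. Gdf15 rose 8.14-fold in lung and its change in liver was 1.31-fold (adjusted p 0.662), with a difference of 2.64 ± 0.39 (adjusted p 7.91e-05). It was well above background on 4 vehicle and 2 high-dose livers, as were Ramp3, Lama1 and Ddah1 below. Its liver groups differed by 1.25 on the second slide and by -0.07 on the third. Without the third liver slide the difference was 1.99 (adjusted p 0.0303).

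Ces2e (NM_172759), a carboxylesterase that cleaves ester bonds of drugs and lipids, had the smallest error of these 9 genes. Its lung values were 0.46, 0.90, 0.95, 0.86 and 1.22 in vehicle and 3.34, 3.51, 3.11, 3.77 and 3.87 at the high dose. In liver it read 4.80, 5.10, 4.72, 4.96 and 3.06 in vehicle and 4.77, 4.95, 3.29, 3.20 and 3.27 at the high dose. The lung groups were far apart, and within each liver slide vehicle and high-dose mice lay close together. The difference was 2.46 ± 0.16 (adjusted p 1.89e-12). A second, dimmer Ces2e probe gave 0.13 (adjusted p 0.847). Its neighbour in sequence, Ces2c, showed a difference of 1.91 ± 0.25 (adjusted p 1.16e-05) with 1 of 3 probes, and the other 2 gave -0.45 and -0.49 (adjusted p 0.682 and 0.467). Near-identical members of the family can share signal, so which carboxylesterase changed is uncertain.

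Ramp3, a partner of the adrenomedullin receptor, had lung values of -0.88, -0.22, 0.12, -0.12 and -0.14 in vehicle and of 2.03, 2.23, 1.52, 1.77 and 2.01 at the high dose, a 4.40-fold rise. Its liver values within the second slide were -1.91 and -1.62 in vehicle and -1.71 and -1.70 at the high dose, and the difference was 1.98 ± 0.20 (adjusted p 7.50e-08). Cd34 (NM_133654), a sialomucin on endothelial and haematopoietic progenitor cells, rose 5.39-fold in lung, from 0.41, 0.64, 0.39, 0.82 and 0.41 to 3.1, 3.16, 2.55, 2.86 and 3.24. The liver change of Cd34 was 0.49 ± 0.14 (adjusted p 0.0832), and its 2 probes gave differences of 1.94 and 1.5. Each high-dose lung was above each vehicle lung for both genes.

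The difference for Lama1, a laminin chain of basement membranes, was 2.03 (adjusted p 0.00231). Lama1 of vehicle mouse 2 was 2.74 in lung, above the other vehicle mice at 1.31 to 1.68. Ecm1, a matrix glycoprotein, had a difference of 1.97, and Ddah1, which breaks down an inhibitor of nitric oxide synthase, of 1.75 (adjusted p 1.01e-07 and 1.49e-05), and 2 probes of each were called. The linker histone gene H1f2 had a difference of 1.62 (adjusted p 8.17e-05), and histone genes are close copies whose signals can mix. All 9 differences were called under median centring (1.64 to 2.79) and without the third liver slide (1.56 to 2.64).

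**Figure D3:**
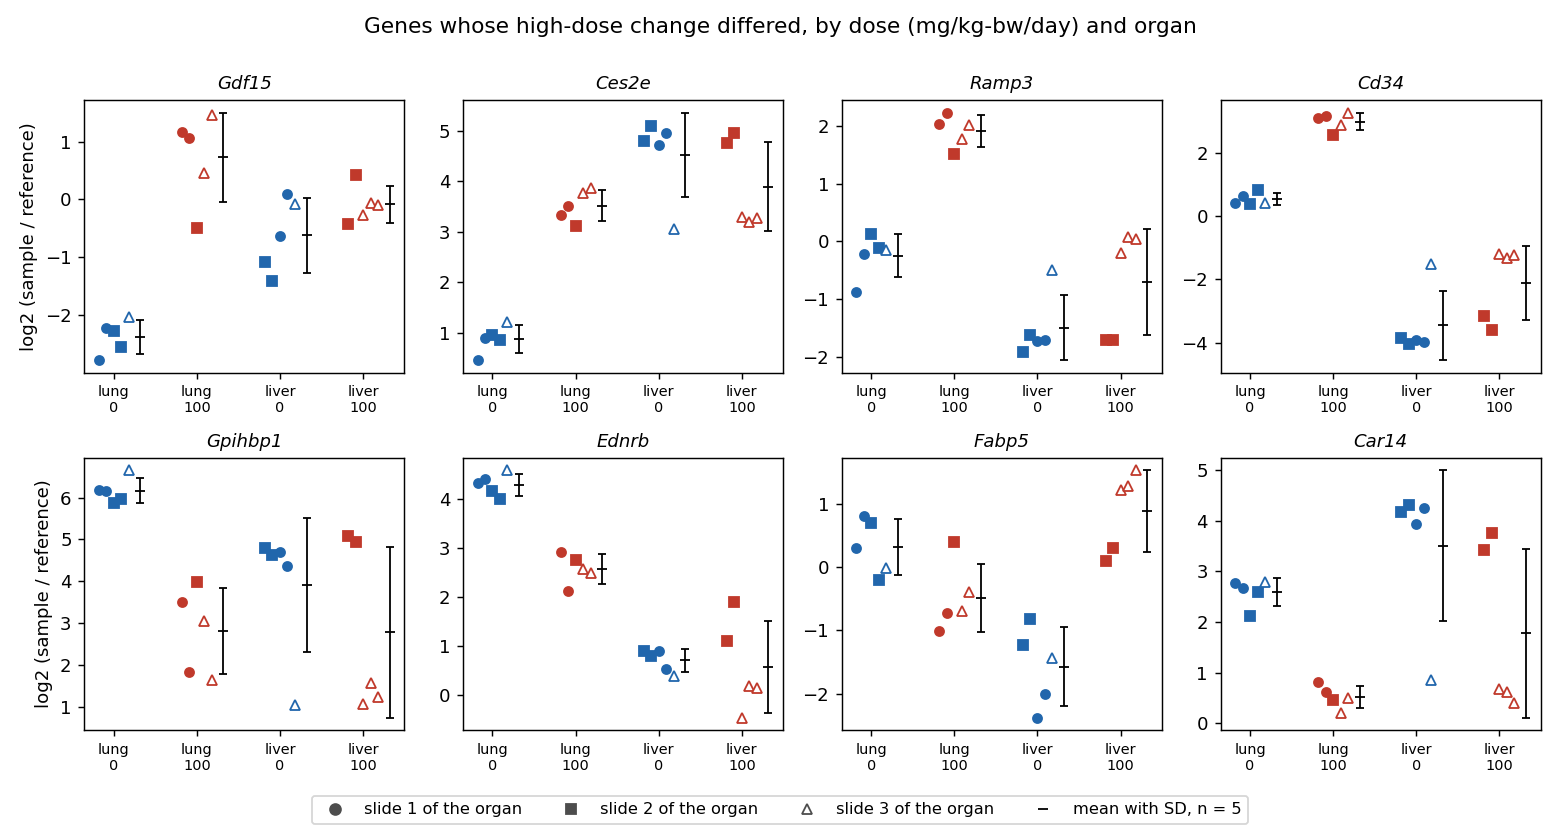
Log2 ratios to the reference RNA of 8 genes with a called difference, per mouse, in vehicle (0) and high-dose (100 mg/kg-bw/day) lung and liver. Circles, squares and triangles are the slides of each organ, and bars are means with SD (n = 5). Lung groups do not overlap for 7 of the genes, and the liver triangles, from the third slide, sit apart for Ces2e, Ramp3, Cd34, Gpihbp1 and Car14.

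In the other direction, 9 of the 10 named genes fell in lung, and Fabp5 was called up in liver. Ednrb, Hilpda and Zmynd15 were well above background on 4 vehicle and 2 high-dose livers. Zmynd15 had a liver change of 0.55 (adjusted p 0.006) that was short of 1.5-fold, and without the third liver slide it was called up there (0.81, adjusted p 0.00129). Gpihbp1 (NM_026730), which carries lipoprotein lipase across the capillary wall, had the largest difference of all named genes, -3.79 ± 0.40 (adjusted p 1.62e-07). Its lung values were 6.18, 6.15, 5.88, 5.97 and 6.65 in vehicle and 3.51, 1.84, 3.98, 3.06 and 1.64 at the high dose, a 10.4-fold fall. In liver it read 4.79, 4.63, 4.69, 4.37 and 1.06 in vehicle and 5.08, 4.93, 1.08, 1.58 and 1.24 at the high dose. On average the high-dose livers lay above the vehicle livers by 0.29 on the second slide and by 0.24 on the third, and the liver change of 0.41 was not called (adjusted p 0.648).

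Ednrb (NM_007904), an endothelin receptor, fell 3.45-fold in lung, from 4.32, 4.41, 4.16, 4.01 and 4.59 to 2.92, 2.13, 2.75, 2.57 and 2.49. Its difference was -2.04 ± 0.31 (adjusted p 0.000134), and its second probe gave -1.76. Car14 (NM_011797), a membrane carbonic anhydrase, fell 4.36-fold, from 2.76, 2.67, 2.11, 2.60 and 2.78 to 0.81, 0.61, 0.46, 0.20 and 0.50. In liver Car14 read 4.16 and 4.31 in vehicle mice 1 and 2 and 3.42 and 3.76 in mice 16 and 17, a liver change of -0.35 that was not called (adjusted p 0.314). The difference was -1.78 (adjusted p 6.74e-07).

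Fabp5 (NM_010634), a fatty acid binding protein of the cytoplasm, rose 4.15-fold in liver (adjusted p 0.00304). Its liver values were -1.23, -0.82, -2.38, -2.0 and -1.43 in vehicle and 0.09, 0.31, 1.22, 1.28 and 1.53 at the high dose, without overlap (1.18% of all genes were free of overlap in liver). In lung Fabp5 read 0.30, 0.81, 0.69, -0.21 and -0.01 in vehicle and -1.01, -0.72, 0.39, -0.70 and -0.39 at the high dose, with overlap and a change of -0.74 (adjusted p 0.261). The difference of -2.79 ± 0.53 (adjusted p 0.00211) was -2.20 without the third liver slide and no longer called (adjusted p 0.131).

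Smaller differences were those of Gprin3 (-1.60, adjusted p 3.90e-05), Zmynd15 (-1.34, adjusted p 6.62e-07), the small GTPase gene Rnd1 (-1.17, adjusted p 0.00154, 1 of 2 probes) and the lipid droplet gene Hilpda (-1.32, adjusted p 0.00711). Hilpda was not called without the third liver slide (-1.35, adjusted p 0.0637) or without mouse 5 (-1.09, adjusted p 0.0691). The flavin monooxygenase gene Fmo1 had a difference of -1.21 (adjusted p 0.0130), which was not called without mouse 1, 17 or 20 (-0.99, adjusted p 0.0912 without mouse 17) or under median centring (-0.68, adjusted p 0.0601). Weakest was the epidermal growth factor receptor gene Egfr, at -1.12 (adjusted p 0.0465). It was not called in 8 of 10 fits without 1 mouse (-0.90, adjusted p 0.233 without mouse 5) or under median centring (-0.58, adjusted p 0.264), and its other 2 probes gave -0.51 and 0.33.

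Some differences belonged to genes that only 1 organ expressed above background. Of the 672 genes, 448 were measured in both organs (well above background on at least 3 of 5 arrays of a group), 111 in lung alone and 18 in liver alone. For these the other organ gives no change to compare, and the value describes the expressing organ. In lung Uchl1, a ubiquitin hydrolase of neuronal and neuroendocrine cells, rose from 0.41, 0.30, 0.53, 0.50 and 0.97 to 2.89, 3.15, 2.27, 3.46 and 3.51 (change 2.37, adjusted p 6.49e-12). Dync1i1, a dynein intermediate chain, was well above background on no vehicle and on all 5 high-dose lungs and was at least 3.37-fold higher (adjusted p 2.63e-10). Grp, gastrin-releasing peptide of neuroendocrine cells, went the other way, from above background on all 5 vehicle lungs to none, and was at least 2.84-fold lower (adjusted p 6.26e-08). Uchl1 and Grp, both known from neuroendocrine cells, thus moved in opposite directions. Syt15, a synaptotagmin, and the transcript AY072938 fell by 1.80 and 1.49 in lung (adjusted p 1.35e-09 and 1.24e-07). In liver Mup6, a major urinary protein, had values of 3.97, 4.72, 4.27, 4.84 and 4.40 in vehicle and of 1.85, 0.75, 2.94, 2.64 and 2.27 at the high dose, a change of -2.18 (adjusted p 5.67e-06). Under median centring that change was -1.17 and the difference was not called (adjusted p 0.114). The Mup genes are near copies, so the Mup6 value may include its relatives.

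Endothelial genes went both ways in lung. Their list was chosen with earlier results of these data known. It holds Mmrn2, Gpihbp1, Ednrb and Esm1, so its counts beside the shares of all genes are description and not support. Of 15 listed genes, 4 were called up in lung (1.29% of all genes were): Mmrn2, Emcn, Pecam1 and Cdh5. In lung 3 were called down (0.686% of all genes were), Gpihbp1, Esm1 and Ednrb, against 1 up in liver, Mmrn2 (0.441% of all genes were called up there). The difference was called for 2 with the higher change in lung (0.918% of all genes were), Emcn (1.45) and Mmrn2. It was called for 4 with the higher change in liver, Gpihbp1, Esm1 (-2.09), Ednrb and Vwf (-0.84; 0.678% of all genes were called in that direction). When the third liver slide was left out, 4 of the 15 were called up in liver, Cdh5 (0.79), Tie1 (0.76) and Vwf (0.72) among them, and differences were called for 1 with the higher change in lung and 5 with the higher change in liver. In that fit 436 genes in all were called up in liver, against 170 with the slide. With mouse as a fixed block Tek was also called (-0.66, adjusted p 0.0122). The Vwf difference was not called under median centring (-0.20, adjusted p 0.463). Emcn encodes an endothelial sialomucin. It was well above background in liver on 2 high-dose arrays and no vehicle array, so its difference describes the lung. Esm1 encodes a proteoglycan of sprouting vessels. Esm1 fell in lung from 3.46, 2.67, 2.59, 1.87 and 2.63 to 0.82, 0.54, 0.93, 1.12 and -0.26. The mean log2 ratio over all 15 genes lay between 3.93 and 4.39 in vehicle lungs and between 3.92 and 4.29 in high-dose lungs, ranges that nearly coincide, and all 15 were well above background on each of these arrays. The list's median difference of -0.33 was 0.32 under median centring.

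The 28 shared genes were led by a clock output gene and held p53 targets, cell cycle genes and endothelial genes. Both organs came from the same mice, so a call in liver is not an independent repeat of a call in lung. A shared call does not make the changes equal: in 5 of the 28 the difference was itself called, each with the larger rise in lung (Cdkn1a, Mmrn2, Ltc4s, Tnfrsf10b and Phlda3). Beside the genes described next, Aen, Nr1d2, Fabp12, Pcdh17, Cox6b2, Rrm2, Ddias, Plk3, Egfl7, Mdm2, Ccm2l, Sertad1, Ak1 and Bhlhe40 rose in both organs, and 2 transcripts without a gene name fell. Ddias and Tnfrsf10b did not meet the background rule for genes measured in both organs. The liver call of Nr1d2 (0.88) was lost in 7 of 10 fits without 1 mouse. Leaving out vehicle mouse 1 reduced the 28 to 12, mouse 2 to 16 and high-dose mouse 17 to 14. Without the third liver slide 52 genes were shared.

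Dbp (NM_016974), an output factor of the clock that binds D-boxes, led the shared genes by the smaller of its changes. Its lung values were -0.67, -2.29, -0.32, -0.09 and -0.95 in vehicle and 1.59, 2.15, 2.45, 2.19 and 1.65 at the high dose. In liver it read -2.10, -2.98, -0.75, -1.52 and -0.39 in vehicle and 0.50, 1.55, 1.91, 1.85 and -0.24 at the high dose. Neither organ's groups overlapped, and vehicle mouse 2 was the lowest in both organs. Dbp rose 7.73-fold in lung and 6.16-fold in liver, with a difference of 0.33 and a 95% interval of -1.06 to 1.71, wide enough to hold a 2-fold difference in either direction. Its relative Tef (NM_017376) rose in lung from 1.60, 0.97, 1.43, 1.44 and 1.35 to 2.14, 2.43, 2.56, 2.27 and 1.94, and in liver from -0.47, -0.71, -0.04, -0.37 and 0.25 to 0.65, 1.09, 1.36, 1.17 and 0.41. The Tef difference was -0.17 with an interval of -0.76 to 0.42.

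Nfil3 (NM_017373), which competes with Dbp and Tef for their sites, fell in both organs. Its lung values went from -1.49, -0.55, -1.27, -1.61 and -1.24 to -2.33, -2.49, -2.21, -2.54 and -2.49, without overlap, and its liver values from 1.20, 1.67, 0.81, 1.32 and -0.02 to 0.57, -0.18, -0.32, -0.41 and 0.09. The lung change was -1.17 (adjusted p 0.000275). The liver groups differed by -1.24 on the second slide and by -0.19 on the third, where high-dose mouse 20 (0.09) lay above vehicle mouse 5 (-0.02). In liver the change of -0.84 was close to the threshold (adjusted p 0.0484) and was not called in 7 of 10 fits without 1 mouse (-0.69, adjusted p 0.273 without mouse 17).

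The hour of day at which each mouse was killed is not among the sample values used here, so its part in the clock genes was not tested. Across the clock, 7 of 10 output genes were called up in lung (1.29% of all genes were) and 3 in liver (0.441% of all genes were). The 3 were Dbp, Tef and Nr1d2, and the list's median changes were 0.96 in lung and 0.48 in liver. Hlf, Per2 and Ciart had a called difference, of 0.90, 0.93 and 0.92 (0.918% of all genes had one with the higher change in lung). Ciart was well above background on no liver array, so its value describes the lung. In Per2, a repressor of the loop, the lung values were 0.54, -0.01, 0.00, 0.00 and 0.38 in vehicle and 1.15, 1.22, 1.67, 1.52 and 1.14 at the high dose, while the liver values within the second slide were 0.10 and 0.42 in vehicle and 0.34 and 0.37 at the high dose. Without the third liver slide, the Hlf and Ciart differences were not called (adjusted p 0.122 and 0.127), and that of Hlf not in 7 of 10 fits without 1 mouse. Of 6 activators and related genes, Arntl and Nfil3 were called down in lung (0.686% of all genes were) and Nfil3 in liver (0.159%). Arntl, the partner of Clock, fell by 1.77 in lung, its liver value was -0.78 (not called), and its difference of -0.98 was not called (adjusted p 0.151) but was with mouse as a fixed block (-0.93, adjusted p 0.011). The promoters of Tef (chr15:81802423-81802672, plus strand, the first of 2 starts) and Ciart (chr3:95882229-95882478, minus strand) are shown with CACGTG, the E-box bound by Arntl and Clock, in capitals, since Tef rose in both organs and Ciart was measured in lung alone.
Tef: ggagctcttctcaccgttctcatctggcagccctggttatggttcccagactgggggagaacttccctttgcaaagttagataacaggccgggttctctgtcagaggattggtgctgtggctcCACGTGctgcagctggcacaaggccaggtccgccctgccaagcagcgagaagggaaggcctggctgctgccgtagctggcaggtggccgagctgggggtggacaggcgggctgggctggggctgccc
Ciart: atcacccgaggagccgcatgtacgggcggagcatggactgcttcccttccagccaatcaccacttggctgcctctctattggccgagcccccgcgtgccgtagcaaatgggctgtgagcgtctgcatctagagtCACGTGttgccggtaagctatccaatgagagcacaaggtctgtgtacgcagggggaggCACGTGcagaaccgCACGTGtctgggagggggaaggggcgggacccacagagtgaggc
CACGTG was found in 5 of 11 promoters of the clock output genes (45.5%, 4 genes) and in 6.02% of all promoters. It was also found in 5 of 22 promoters of p53 targets (22.7%), so the match describes letters and not binding. The D-box letters TTANGTAA were found in 1 of the 11 (Per3) and in 2.06% of all. For the shared genes with an entry (18 of 26 named, 26 promoters), CACGTG was found in 11.5%, GCGTG in 46.2%, TTANGTAA in none and TGACNNNGC, the antioxidant element, in 19.2%, against 10.2% of all promoters for the last. Of the shared genes Tef and Aen held CACGTG. Both strands were searched, and CACGTG reads the same on both.

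**Figure D4:**
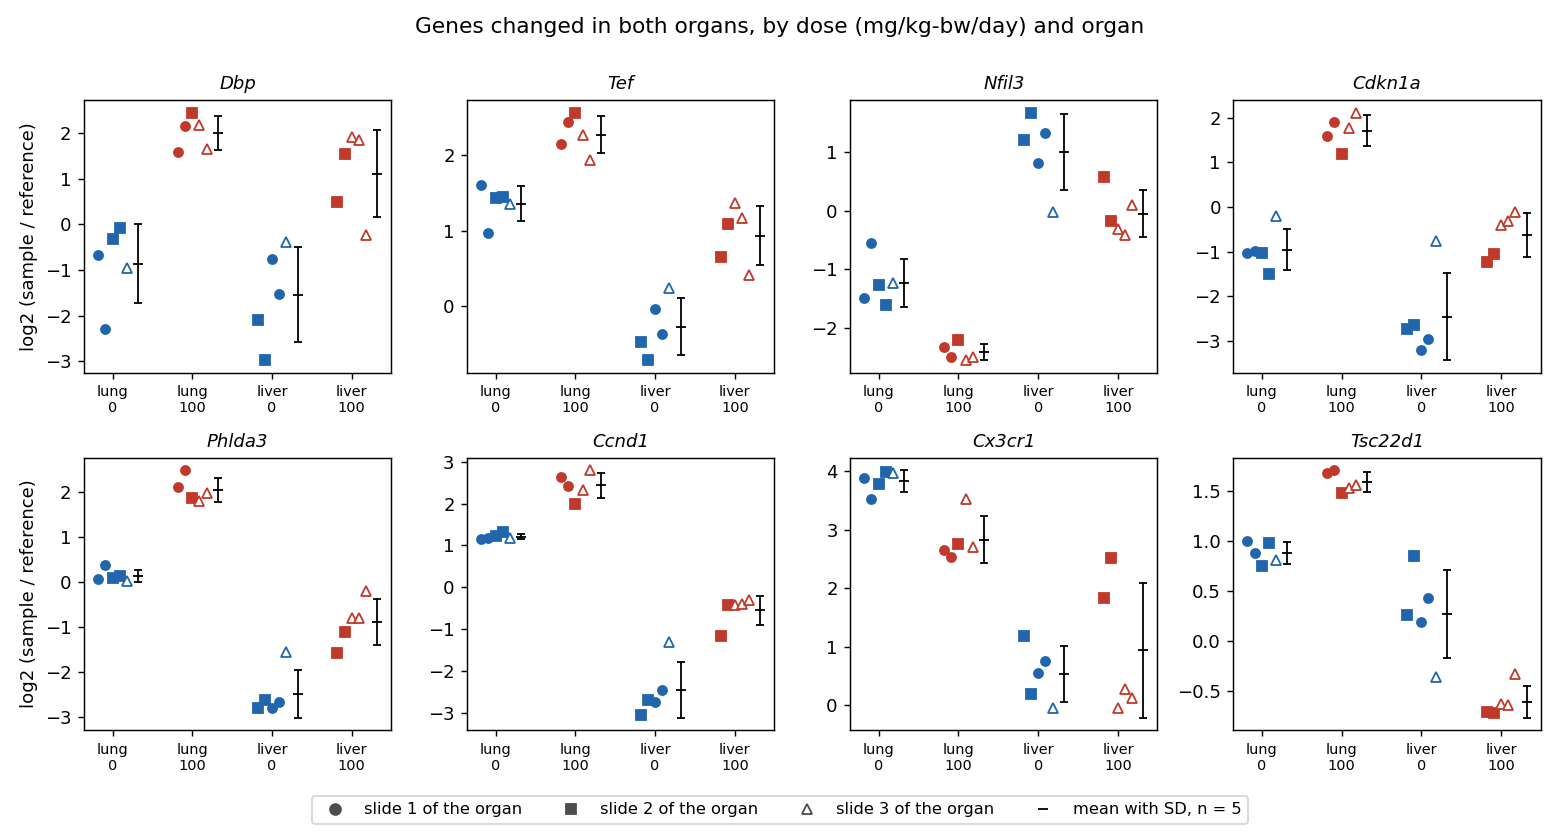
Log2 ratios to the reference RNA, per mouse, of 6 genes called in the same direction in both organs and of Cx3cr1 and Tsc22d1, called in opposite directions, in vehicle (0) and high-dose (100 mg/kg-bw/day) lung and liver. Circles, squares and triangles are the slides of each organ, and bars are means with SD (n = 5). Dbp groups do not overlap in either organ.

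Among p53 targets the response was shared in part and larger in lung. Of 20 listed genes, 13 were called up in lung (1.29% of all genes were) and 5 in liver (0.441% of all genes were). The 5, all also called in lung, were Cdkn1a, Phlda3, Aen, Mdm2 and Tnfrsf10b. Tnfrsf10b, a death receptor, was well above background on no vehicle liver and on 2 high-dose livers. In all, 8 of the 20 had a called difference, all with the higher change in lung (0.918% of all genes had one). The medians were 0.79 in lung, 0.33 in liver and 0.59 for the difference. Cdkn1a (NM_007669), the p21 inhibitor of cyclin-dependent kinases, had lung values of -1.04, -0.99, -1.04, -1.5 and -0.21 in vehicle and of 1.59, 1.91, 1.18, 1.76 and 2.11 at the high dose. In liver it read -2.73 and -2.64 in vehicle mice 1 and 2 and -1.24 and -1.06 in mice 16 and 17 on the second slide, and -0.77 in vehicle mouse 5 and -0.40, -0.31 and -0.11 in mice 18, 19 and 20 on the third. The group means differed by 1.54 on the second slide, while all 4 values of the third were below the detection level. Cdkn1a rose 5.92-fold in lung and 2.37-fold in liver, with a difference of 1.32 ± 0.27 (adjusted p 0.00395), which was 0.82 without the third liver slide and not called (adjusted p 0.236).

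Phlda3 (NM_013750), a p53-induced repressor of Akt, rose in lung from 0.06, 0.38, 0.10, 0.13 and 0.03 to 2.12, 2.49, 1.88, 1.81 and 1.99, or 3.82-fold, and in liver by 2.24-fold (adjusted p 1.99e-05). On the second liver slide it went from -2.81 and -2.63 to -1.59 and -1.12, and on the third from -1.56 to -0.79, -0.79 and -0.19. Vehicle mouse 5 of that slide was not well above background for Phlda3, Ccnd1 or Mmrn2. Its difference of 0.77 (adjusted p 0.0339) was not called in 7 of 10 fits without 1 mouse (0.74, adjusted p 0.118 without mouse 5). Mdm2, which targets p53 for degradation, rose by 0.66 in lung and 0.69 in liver, with a difference of -0.04 and an interval of -0.30 to 0.22. The apoptosis gene Bax, Zmat3, Plk2 and Trp53inp1 rose by 0.82 to 1.38 in lung, had liver values of -0.03 to 0.41 that were not called, and each had a called difference (0.79 to 0.99; that of Trp53inp1 was lost without mouse 1, 5 or 20 and that of Plk2 without mouse 5). Without the third liver slide, 8 of the 20 genes were called in liver, and 2 had a called difference with the higher change in lung and 1 with the higher change in liver. In that fit 436 genes in all were called up in liver, against 170 with the slide.

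The cell cycle genes Ccnd1 and Spc25 rose in both organs, and their differences were not called. Ccnd1 (NM_007631), cyclin D1 of the G1 phase, rose in lung from 1.15, 1.18, 1.22, 1.33 and 1.19 to 2.63, 2.42, 2.00, 2.33 and 2.80. In liver it rose on the second slide from -3.05 and -2.70 to -1.17 and -0.43, and on the third from -1.32 to -0.43, -0.41 and -0.31. The changes were 1.18 and 1.52, and the difference of -0.34 had an interval of -0.86 to 0.19. Spc25, a kinetochore protein, rose by 0.99 in lung and 1.89 in liver, with a difference of -0.90 (interval -1.72 to -0.08, adjusted p 0.305). Its lung call was lost without mouse 1, 5, 18 or 19 (0.84, adjusted p 0.0938 without mouse 18).

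Of 12 proliferation genes, Rrm2 was called up in lung (1.29% of all genes were) and 6 were in liver (0.441% of all genes were): Mki67, Birc5, Ccna2, Ccnb1, Plk1 and Rrm2. Under median centring the counts turned to 8 in lung and 1 in liver, and without a slide term they were 0 and 1. Over all genes, median centring gave 3289 calls up in lung and 48 in liver, against 518 and 170 by loess. The Rrm2 lung call (0.74, adjusted p 0.0449) was lost in 7 of 10 fits without 1 mouse (0.49, adjusted p 0.286 without mouse 18). No difference was called by limma, and 3 had an unadjusted p under 0.05. Mki67, a marker of cycling cells, read -6.06 and -5.48 in vehicle mice 1 and 2 and -4.33 and -2.30 in mice 16 and 17, with mouse 17 far above the rest. Without mouse 17 the Mki67 liver change fell from 1.34 to 0.81 and those of Ccnb1, Ccna2 and Plk1 from 1.03, 1.12 and 0.68 to 0.53, 0.62 and 0.36, none of them called.

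Mmrn2 and Lyve1, genes of endothelium, rose in both organs. Mmrn2 (NM_153127), an endothelial matrix glycoprotein, went from 5.86, 5.56, 5.55, 5.71 and 5.80 to 8.46, 8.56, 7.58, 8.72 and 8.90 in lung, a 6.18-fold rise. In liver it went from 3.65 and 3.81 to 5.37 and 5.51 on the second slide and from 0.52 to 1.56, 1.44 and 1.76 on the third, a 2.90-fold rise (adjusted p 2.28e-05). The difference of 1.09 (adjusted p 0.0234) was not called without the third liver slide (0.97, adjusted p 0.183) or without mouse 2, 5, 16, 17 or 19 (0.77, adjusted p 0.215 without mouse 5). Lyve1, a hyaluronan receptor of lymphatic and liver sinusoidal endothelium, rose by 1.25 in lung and 1.27 in liver. Its liver rise stood on 1 slide, from 1.35 and 0.87 to 3.27 and 3.49, while the values of the third slide, 0.12 against 0.16, 0.06 and 0.22, were all below the detection level. Its liver call was lost without mouse 2 or 17 (1.08, adjusted p 0.0814 without mouse 17). Dcaf12l2 fell by 0.61 in lung and by 0.69 in liver on the log2 scale. Its liver change was 0.13 under median centring, so its direction there rests on the normalization.

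Only Cx3cr1 and Tsc22d1 were called in opposite directions. Cx3cr1 (NM_009987), the fractalkine receptor of monocytes and tissue macrophages, had lung values of 3.89, 3.53, 3.79, 3.98 and 3.97 in vehicle and of 2.65, 2.53, 2.75, 3.53 and 2.70 at the high dose. On the second liver slide it read 1.18 and 0.20 in vehicle and 1.83 and 2.52 at the high dose. The lung groups were not free of overlap: high-dose mouse 19 reached vehicle mouse 2 (both 3.53), and the other high-dose lungs lay below all vehicle lungs. On the third liver slide no array was above background. The changes were -1.06 ± 0.21 in lung (adjusted p 0.00063) and 0.90 ± 0.22 in liver (adjusted p 0.0269), the difference was -1.96 (adjusted p 0.000124), and the second probe gave -1.01. The liver call was lost without mouse 1, 2, 3 or 17 (0.70, adjusted p 0.211 without mouse 17).

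Tsc22d1 (NM_009366), a leucine zipper protein induced by TGF-beta, rose in lung from 1.00, 0.88, 0.75, 0.98 and 0.81 to 1.68, 1.71, 1.48, 1.53 and 1.56. In liver it fell from 0.26, 0.85, 0.19, 0.43 and -0.36 to -0.71, -0.72, -0.63, -0.64 and -0.33. Both its probes showed the pattern, with differences of 1.49 and 1.40. The liver groups differed by -1.26 on the second slide and by -0.17 on the third. On the third slide high-dose mouse 20 (-0.33) lay just above vehicle mouse 5 (-0.36). The liver change of -0.78 (adjusted p 0.0217) was not called without mouse 1, 2, 16 or 17 (-0.62, adjusted p 0.152 without mouse 2), and the difference of 1.49 ± 0.25 (adjusted p 0.000567) kept its direction under median centring (1.90).

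Other pathways of xenobiotic and lipid metabolism gave at most 1 call per list in each organ. Of all genes, 1.29% were called up and 0.686% down in lung, and 0.441% up and 0.159% down in liver. A difference was called for 0.918% with the higher change in lung and for 0.678% with the higher change in liver. Of 10 NRF2 targets, the epoxide hydrolase gene Ephx1 was called in lung (0.99, with a difference of 0.66) and Osgin1 in liver (0.89). The Ephx1 difference was not called in 9 of 10 fits without 1 mouse (0.59, adjusted p 0.0957 without mouse 20) or without the third liver slide (adjusted p 0.0929), and Osgin1 not without mouse 1, 5 or 16. Of the 11 measured targets of the xenobiotic receptors, Abcb1a was called up in lung (0.65) and Ces2a down in liver (-0.64). The Ces2a call was lost in 7 of 10 fits without 1 mouse (-0.32 without mouse 5) and without the third liver slide (-0.13, adjusted p 0.761), and that of Abcb1a without mouse 2 or 18. Of 10 sterol synthesis genes, Sqle was called down in lung (-0.68) and in the difference (-0.82, not called without mouse 2, 3, 5, 17 or 19), and the list's median lung change of -0.37 was 0.03 under median centring. By limma no gene of fatty acid synthesis (8 genes), of the PPAR alpha targets (12) or of the interferon response (9) was called in either organ or in the difference, with 2, 3 and 2 lung changes, 2, 4 and 1 liver changes and 5, 0 and 1 differences at an unadjusted p under 0.05 (22.2%, 13.3% and 15.1% of all genes). With mouse as a fixed block, the difference of Me1 of fatty acid synthesis was called (0.75, adjusted p 0.0107). The acute phase gene Saa3 rose in lung (1.87), with a difference of 1.85 that was not called (adjusted p 0.163), and its lung call was lost without mouse 5 (adjusted p 0.072).

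Markers of other cells that the organs may hold moved with the dose in places. Of all genes, 1.29% were called up in lung, and 0.441% up and 0.159% down in liver. A difference was called for 0.918% with the higher change in lung and for 0.678% with the higher change in liver. Of 9 class II genes, H2-Ab1 (0.70), H2-Eb1 (0.77) and Cd74 (1.11) were called up in liver, where 0.441% of all genes were. None of the 9 was called up in lung, where 2 reached an unadjusted p under 0.05. None of their differences was called by the brightest probe (6 had an unadjusted p under 0.05), although a second H2-Ab1 probe was called at -1.26. With mouse as a fixed block, the differences of H2-Ab1 (-0.90, adjusted p 0.00312), H2-Eb1 (-0.84, adjusted p 0.0114) and Cd74 (-0.97, adjusted p 0.00627) were called. The liver call of H2-Ab1 was lost in 7 of 10 fits without 1 mouse and that of H2-Eb1 without mouse 1, 2, 17 or 19. Without the third liver slide none of the 3 was called in liver (adjusted p 0.246, 0.235 and 0.074), and the list's median difference of -0.41 was 0.23 under median centring. Of 5 B-cell markers, Cr2 (0.61) was called up in lung, a call lost in 7 of 10 fits without 1 mouse, and the mean log2 ratio over the list was 0.75 to 1.83 in vehicle lungs and 1.33 to 2.02 in high-dose lungs. The neutrophil gene S100a9 was called in liver (1.95) with a difference of -1.33, and S100a8 in lung (1.19), whose difference was called with mouse as a fixed block (1.13, adjusted p 0.00163; without the block 0.80, adjusted p 0.338). The S100a9 difference was -0.30 under median centring (adjusted p 0.592) and was not called in 7 of 10 fits without 1 mouse. Of 5 macrophage markers Marco was called in lung (1.18), of 2 erythroid markers Alas2 in liver (-0.86; not called without the third liver slide, at -0.35, adjusted p 0.158, and at -0.13 under median centring), and none of 6 T-cell markers was called (2 in lung and 1 in liver at an unadjusted p under 0.05). The lung call of Marco was lost without mouse 18. Of the organ markers, the surfactant protein gene Sftpd was called up in liver (0.95), Tat was called down there (-0.71; its difference of 0.65 was called with mouse as a fixed block, adjusted p 0.0267), and Apoa2 had a difference of 0.76. The second Apoa2 probe gave 0.24 (adjusted p 0.489). The liver call of Sftpd was lost without mouse 1, 2 or 17 and that of Tat without mouse 5 or 18. Sftpd was well above background on 4 vehicle and 2 high-dose livers. The part of such cells in the genes above was not tested.

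At the lower doses (25 and 50 mg/kg-bw/day), which share the vehicle arrays with the high dose, some differences were already close to those at the high dose. For Gdf15 the differences at low, medium and high dose were 2.45, 2.29 and 2.64, and for Ces2e 2.13, 2.12 and 2.46. Others were small below the high dose. H1f2 had differences of 0.08, 0.72 and 1.62, Gpihbp1 of -0.49, -1.17 and -3.79, and Dync1i1, measured in lung alone, of -0.05, 0.05 and 1.93. Car14 lay between, with -0.98, -1.54 and -1.78, as did Fabp5 with -1.12, -1.92 and -2.79. For the shared clock genes the differences stayed near 0 at all doses, at 0.07, 0.20 and 0.33 for Dbp and 0.09, -0.20 and -0.17 for Tef.

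**Figure D5:**
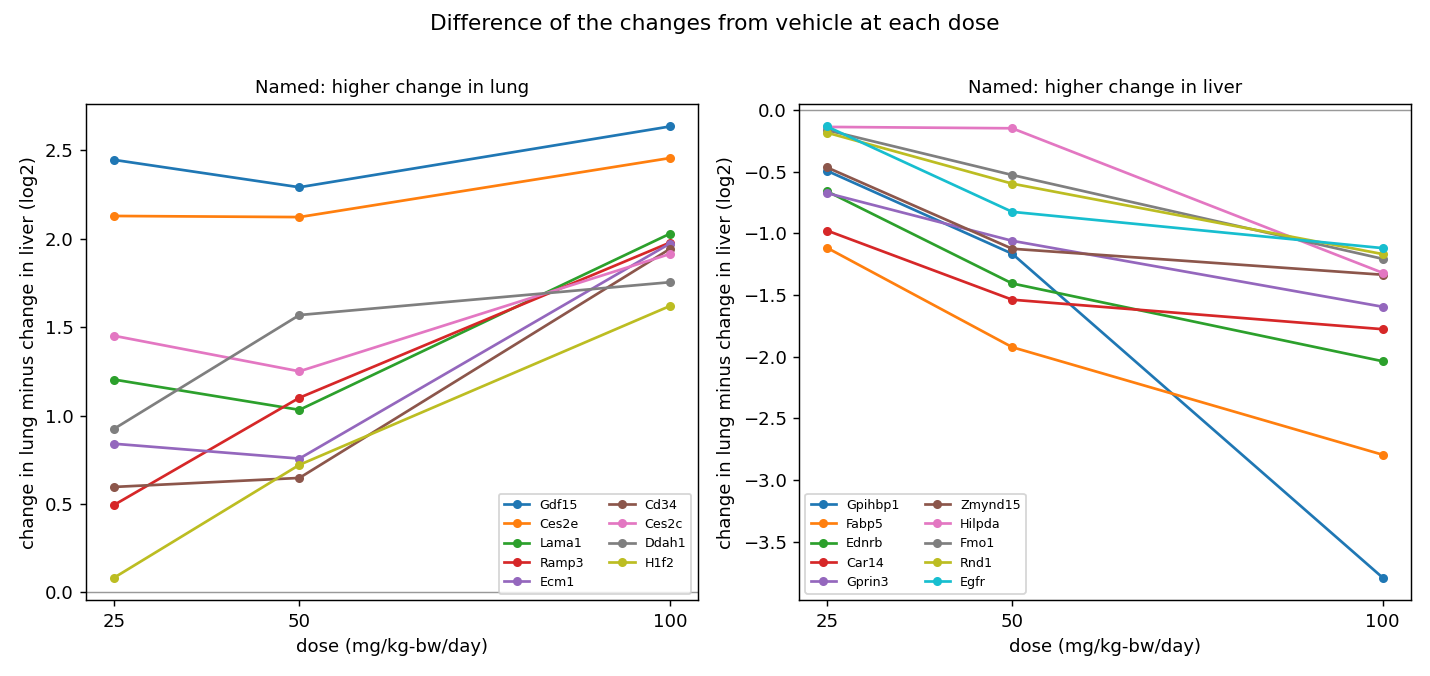
Difference of the change between lung and liver (log2, lung minus liver) of the named genes by daily dose in mg/kg-bw, with 1 line per gene. All doses are compared with the same vehicle arrays. Gdf15 and Ces2e were above 2 at each dose, and the Gpihbp1 difference went from -0.49 at the low to -3.79 at the high dose.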

How the data were processed

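Agilent SurePrint G3 Mouse 8 × 60K arrays carried organ RNA (Cy5) and universal reference RNA (Cy3), with no dye swap. The authors deposited the intensity of every spot as Feature Extraction 10.7.3.1 gave it, without background subtraction in the columns used here, and a table of LOWESS-normalized log2 ratios, whose exact centring is not given in the sources used here and which correlated with the values below at r of 0.997 to 0.998, or 0.976 to 0.982 on the third liver slide. No column held other samples (0), and the forestomach arrays were not used.

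From the deposited median intensity of each spot, log2(Cy5/Cy3) was normalized by loess within arrays (limma 3.58.1, R 4.3.3), with control spots given no weight and non-uniform spots left out (268 probe values missing in lung and liver). Of 62976 spots, 59305 were not controls, and spots of one probe were averaged to 55681 probes. Of these, 26413 matched 20018 gene symbols through RefSeq (GRCm38.p6), and 29268 kept the name in the file. The array annotation is on mm9, so all coordinates printed are those of the RefSeq promoter table, and sequences of genes without an entry were not analysed.

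One limma model was fitted over the 39 lung and liver arrays, with dose and organ groups and with slide within organ as a block (27 residual degrees of freedom), and gave the high-dose change in each organ and the difference. All doses stayed in the fit so that they share 1 estimate of the spread, and the study's own test was a permutation test in MAANOVA. A gene was called when any probe had an adjusted p of at most 0.05 and at least 1.5-fold, and was represented by its called probe with the largest value. Lists used the brightest probe. The 95% intervals come from the same fit. The number of arrays limits the precision. Tested on simulated data with 55681 probes, the fit recovered 97 of 100 probes changed by 1 on the log2 scale in lung and 91 of 100 in the difference, and all 100 of each at 2, with 2 and 3 false calls. The changes were planted in lung only, with normal residuals of the same spread on all arrays for a probe. Recovery of changes in liver, or on a slide of narrow spread, was not tested.

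The rule for naming took the 10 largest differences in each direction among called genes that had a symbol and were well above background on at least 3 of 5 arrays of a group in each organ and on at least 1 array of each of the 4 groups. Their dose groups had to be free of overlap in the organ of larger change, and the sign had to hold in both sets of slides and in the brightest probe. It took up to 5 genes per organ for those measured in 1 organ, up to 8 shared genes in each direction by the smaller change, the opposite genes, and the called members of each list. Of the genes that the rule and the lists gave, 2 are not reported here. The other shared genes, and further probes of a named gene, were chosen after their values were seen. Members and lists were chosen with earlier results of these data known. Bounds ("at least N-fold") set the mean of the measured group against the lowest signal well above background, per channel after loess and between-array scaling, and are open to dye bias.

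The labels give 1 number to both organs of a mouse. Residuals of the organs of 1 mouse correlated at -0.0505 to 0.128 over 19 mice (median 0.0417, 1 above 0.1). The alternatives were no slide term, the 20 arrays alone, mouse as a fixed or random block, the third liver slide left out, median centring, normexp with offset 50, the authors' table, probes measured in both organs, array weights, each mouse left out and, chosen after seeing the data, arrays scaled to equal spread.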

Additional observations from a re-analysis of the deposited data

Results flagged for a closer look

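The test of the difference between the organs flagged 672 genes as a whole. Among the named genes it flagged higher changes in lung for Gdf15 (2.64), Ces2e (2.46), Lama1 (2.03), Ramp3 (1.98), Ecm1 (1.97), Cd34 (1.94), Ces2c (1.91), Ddah1 (1.75), H1f2 (1.62) and Tsc22d1 (1.49), as lung change minus liver change on the log2 scale. It flagged a more negative change in lung than in liver for Gpihbp1 (-3.79), Fabp5 (-2.79), Ednrb (-2.04), Cx3cr1 (-1.96), Car14 (-1.78), Gprin3 (-1.60), Zmynd15 (-1.34), Hilpda (-1.32), Fmo1 (-1.21), Rnd1 (-1.17) and Egfr (-1.12).

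Single arrays far from the other 4 of their group were looked for with Dixon's test, which chance alone meets in about 1 of 20 groups. Vehicle liver mouse 5, the only vehicle mouse on the third liver slide, stood apart in 14 named genes. Its log2 ratios were 0.85 for Car14, -1.50 for Cd34, -0.77 for Cdkn1a, 5.12 for Ces2c, 3.06 for Ces2e, 1.14 for Fmo1, 1.06 for Gpihbp1, 0.36 for Gprin3, -0.55 for Hilpda, -0.15 for Lama1, 0.52 for Mmrn2, -1.56 for Phlda3, -0.50 for Ramp3 and 0.01 for Zmynd15. The other arrays that stood apart were vehicle lung mouse 3 for Car14 (2.11), vehicle lung mouse 2 for Lama1 (2.74) and Phlda3 (0.38), high-dose lung mouse 19 for Cx3cr1 (3.53), high-dose liver mouse 16 for Ccnd1 (-1.17) and high-dose liver mouse 20 for Tsc22d1 (-0.33).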

How the results depend on the processing

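Counts of called genes depended most on the slide term and on the normalization, and the cause was not tested. Without a slide term 433 genes were called in lung, 86 in liver, 163 in the difference, 10 as shared and 1 as opposite. With the 20 arrays alone, liver gave 137 genes, shared 16 and opposite 1. Without the third liver slide, liver gave 560, shared 52 and opposite 4, and 340 of the 672 differences were found again among 621. These 621 were split 257 to 364, with more genes of higher change in liver, against 384 to 288 in the main fit. Median centring gave 3346 in lung, 62 in liver and 3290 in the difference, 393 of the 672 among them. Arrays scaled to equal spread, chosen after seeing the data, gave 367 in liver. Leaving out 1 mouse gave 729 to 1032 genes in lung, 101 (mouse 17) to 352 (mouse 5) in liver, 451 to 776 in the difference, 12 (mouse 1) to 35 shared and 0 (mouse 1, 2 or 17) to 4 opposite. With mouse as a fixed block, the pairing that the labels give, 771 differences were called, and with mouse as a random block 700, and all 41 differences of the genes tracked stayed called in both, while the fixed block added calls for Arntl, Me1, Tek, H2-Ab1, H2-Eb1, Cd74, S100a8 and Tat. The fixed block leaves no count for lung, liver, shared or opposite genes. Normexp, the authors' table and the probes measured in both organs gave 638, 664 and 545 differences and array weights 768. Directions turned without a slide term for Fmo1 (difference 0.37), Apoa2 (difference -0.061) and H2-Ab1 (liver -0.31), and under median centring for Dcaf12l2 (liver 0.13). Over the 41 differences tracked, 28 calls were not kept without a slide term (26 lost and 2 reversed) and 15 without the third liver slide. Signal limits the liver comparison: on the third slide 11.9% to 12.9% of probes were well above background.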
